A study of Mus musculus with 2 samples.

Results

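The genes described here carry the signals of interleukin-10 (IL-10) and of interleukin-4 (IL-4) and interleukin-13 (IL-13) in injured skeletal muscle. They were taken by symbol, and are the ligand Il10, the receptor chains Il10ra, Il10rb, Il4ra, Il13ra1 and Il2rg, the transcription factor Stat6 and the feedback inhibitors Socs1, Socs3 and Cish, which makes 10 of the 32285 genes in the count tables. All of them were detected on both days. The study asked how diverse the activation of monocytes/macrophages is in injured muscle. Single cells were prepared from the quadriceps of male wild-type (WT) mice, 14 weeks old, injected with BaCl2, a salt that kills myofibers and leaves the muscle to regenerate. Quadriceps was collected 1 day and 3 days post-injury. Each day has 1 library, made from the cells of 5 pooled mice, and uninjured muscle was not analysed here. The suspension held mononuclear cells only, so myofibers are not represented, and the cells were sorted on light scatter and frozen before the libraries were made.

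IL-10 is a cytokine that restrains inflammatory gene expression in myeloid cells. It signals mainly through STAT3, from a receptor made of the ligand-specific chain Il10ra and the shared chain Il10rb, whereas IL-4 binds Il4ra paired with the common gamma chain Il2rg (the type I receptor, found mostly on blood cells) or with Il13ra1 (the type II receptor, which also binds IL-13), both of which activate STAT6. Both pathways are known for their part in the change of muscle macrophages from an inflammatory to a reparative state, and the SOCS family, Cish included, is made in response to cytokines and dampens such receptors.

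The STAT dimers at the end of these pathways bind pairs of short inverted repeats, and the feedback inhibitors are known STAT targets, so the start regions of the members were searched for the spaced motifs TTCNNNGAA and TTCNNNNGAA. Both motifs read alike in form on the 2 strands. The RefSeq promoters of the GRCm38.p6 build, 250 bases before to 50 bases after each start, held 7 of the 10 members (Il4ra, Il13ra1, Il2rg, Stat6, Socs1, Socs3 and Cish). TTCNNNGAA was found in the windows of Socs3 and Cish, 2 of 7, and in 8.30% of all 32851 windows. TTCNNNNGAA was found in 0 of 7 and in 6.95% of all windows. The matching stretches are shown. Socs3 and Cish are also the members with the lowest day 3 to day 1 ratios in monocytes/macrophages, below, but a link between match and ratio was not tested. Il10, which was also lower there, was not among the windows searched. Capitals mark the matches.
Cish, chr9:107296654-107296683, plus strand: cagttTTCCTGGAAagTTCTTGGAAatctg
Socs3, chr11:117969457-117969575, minus strand: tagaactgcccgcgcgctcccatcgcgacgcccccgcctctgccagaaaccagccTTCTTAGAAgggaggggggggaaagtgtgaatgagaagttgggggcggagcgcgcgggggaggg
The matches of Cish lie 0 and 11 bases past the start that RefSeq gives and within the 5′ UTR of a longer GENCODE transcript, Cish-201. The match of Socs3 lies 154 bases before the start that RefSeq gives and in no GENCODE exon, but within the longer annotated span of the gene (chr11:117966079-117970336). These are matches of letters in a window, not measured binding.

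The libraries held 74852240 unique molecular identifiers (UMIs, each a counted RNA molecule) on day 1 and 102565783 on day 3. After filtering there were 6735 cells of day 1 with a median of 9389 UMIs and 4627 cells of day 3 with a median of 14548 UMIs, and no barcode was a cell in both. The mitochondrial limit of 7.5% removed 277 barcodes of day 1, or 3.76%, and 1804 of day 3, or 27.2%. The number of possible barcodes in the tables also differs, with 737280 for day 1 and 6794880 for day 3. The lists of possible barcodes share 77142, so the libraries were counted against different lists. The study describes a single chemistry for its libraries but names chip kits of different versions, without saying which library used which. Whether the chemistry differed is therefore not known from the labels. Day, library, depth, barcode list and any difference in chemistry cannot be told apart. Levels are given as UMIs of the gene per 1000000 UMIs (CPM) after adding up the cells of a group. Their 95% confidence intervals (CI) are exact Poisson intervals, and shares of cells with at least 1 UMI carry Clopper-Pearson 95% CI. Intervals and floors cover counting error only. With no replicate there is no test and no p-value, and the spread between mice is unknown.

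The cells formed 14 clusters, named from marker genes. Monocyte/macrophage-like cells (3501 on day 1 and 2812 on day 3) came from different clusters on each day. On day 1 most were in clusters led by Serpinb2/Il1a (1433 cells), Ppbp/Cd163 (1196) and Dmkn/Saa3 (576). On day 3 most were in clusters led by Gpnmb/Syngr1 (1170 cells), by the interferon-induced Rsad2/Ifit3 (880) and by the cell cycle genes Stmn1/Mki67 (379). A cluster led by Plac8 and Ifitm6 held 206 cells on day 1 and 333 on day 3. Ranges and orders over monocyte/macrophage-like clusters, below, cover clusters with at least 50 cells on that day. There were 2079 and 258 neutrophil-like cells, with medians of only 2157 and 1632 UMIs. The dendritic cell-like cluster (413 and 447 cells, led by H2-Eb1 and H2-Aa) also carried all 12 monocyte/macrophage markers, at a summed 12617 CPM on day 1 against 17260 CPM in monocyte/macrophage-like cells, beside 502 CPM for the 9 dendritic cell markers. Fibro/adipogenic progenitor (FAP)-like cells numbered 838 on day 3, satellite cell/myoblast-like cells 203 on day 3, and an unnamed cluster led by Cxcl5 and Prg4 held 640 cells on day 1. That cluster expressed all 7 FAP markers but also the tenocyte gene Thbs4 among its leading genes. FAP-like and Cxcl5/Prg4-led cells are separate clusters, each present almost entirely on 1 day, and their values stand side by side with no day comparison. Another unnamed cluster, led by Hbb-bs and Ctla2a, held 73 cells on day 1, of which 57 scored highest for endothelial markers. On day 3 it held 47 cells, of which 27 scored highest for markers of T and natural killer (T/NK) cells and 14 for endothelial markers.

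Il10 was expressed mainly by monocytes/macrophages, and its level there was 2.47-fold lower on day 3. Monocyte/macrophage-like cells had 148 CPM of Il10 (95% CI 144 to 151) on day 1 and 59.7 CPM (57.4 to 62.0) on day 3, a log2 ratio of -1.31 (-1.37 to -1.24). They gave 91.5% of all Il10 UMIs on day 1 and 84.0% on day 3. Dendritic cell-like cells followed with 53.5 CPM (47.5 to 60.2) and 37.7 CPM (32.6 to 43.4). The Hbb-bs/Ctla2a-led cells had 49.1 CPM (33.4 to 69.8) on day 1, with an interval overlapping that of dendritic cell-like cells, but all of these 31 UMIs were in 3 of the 73 cells, and the monocyte/macrophage markers summed to 3253 CPM in this cluster. On day 3 Il10 was lowest in satellite cell/myoblast-like cells, at 1.99 CPM (1.18 to 3.15).

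Within monocytes/macrophages Il10 was concentrated in few cells and in certain clusters. The tenth of monocyte/macrophage-like cells with the most Il10 UMIs held 80.9% of them on day 1 and 72.6% on day 3, and single cells reached 94 and 33 UMIs. The share of cells with a UMI was nearly the same on both days, 28.6% (27.1 to 30.1) and 28.1%, while the mean per cell with a UMI was 6.04 UMIs on day 1 and 3.35 on day 3. Because day 3 cells were deeper (medians of 11158 and 13821 UMIs), cells were also thinned to 3000 UMIs, leaving out 132 shallower cells of day 1 and 51 of day 3, which gave shares of 16.3% (15.1 to 17.6) on day 1 and 11.6% on day 3. Fewer day 3 cells carried many copies: 357 cells (10.2%) had 5 or more Il10 UMIs on day 1 and 169 cells (6.01%) on day 3.

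By cluster, the day 1 levels of Il10 ran from 191 CPM (184 to 198) in the Serpinb2/Il1a-led cells and 172 CPM (165 to 178) in the Ppbp/Cd163-led cells down to 76.2 CPM in the Rsad2/Ifit3-led, 32.7 CPM in the Dmkn/Saa3-led and 2.84 CPM (1.04 to 6.18) in the Plac8/Ifitm6-led cells. On day 3 the Rsad2/Ifit3-led cells had 79.0 CPM (73.5 to 84.8), the cycling Stmn1/Mki67-led cells 57.7 CPM, the Gpnmb/Syngr1-led cells 56.3 CPM and the Plac8/Ifitm6-led cells 12.9 CPM (9.12 to 17.7). The highest clusters of day 1 were thus those that hold 11 and 18 cells on day 3. In these few cells Il10 was at 228 CPM (153 to 328) in the Serpinb2/Il1a-led and 128 CPM (88.8 to 179) in the Ppbp/Cd163-led cluster, from 29 and 34 UMIs. Both values are above those of the larger day 3 clusters. Within the Rsad2/Ifit3-led cells the log2 ratio of Il10 was 0.04 (-0.36 to 0.49), an interval that allows a lower or a higher day 3 level. In the Plac8/Ifitm6-led cells it was 2.08 (0.93 to 3.71) from 6 and 38 UMIs, too few for the minimum set for 2-fold calls. In the dendritic cell-like cluster, outside this class but with all its markers, Il10 was lower on day 3 (-0.51, CI -0.78 to -0.24). The level and the makeup of the monocyte/macrophage-like class both differed between the days, and the part of that makeup in the ratio was not tested.

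**Figure D1:**
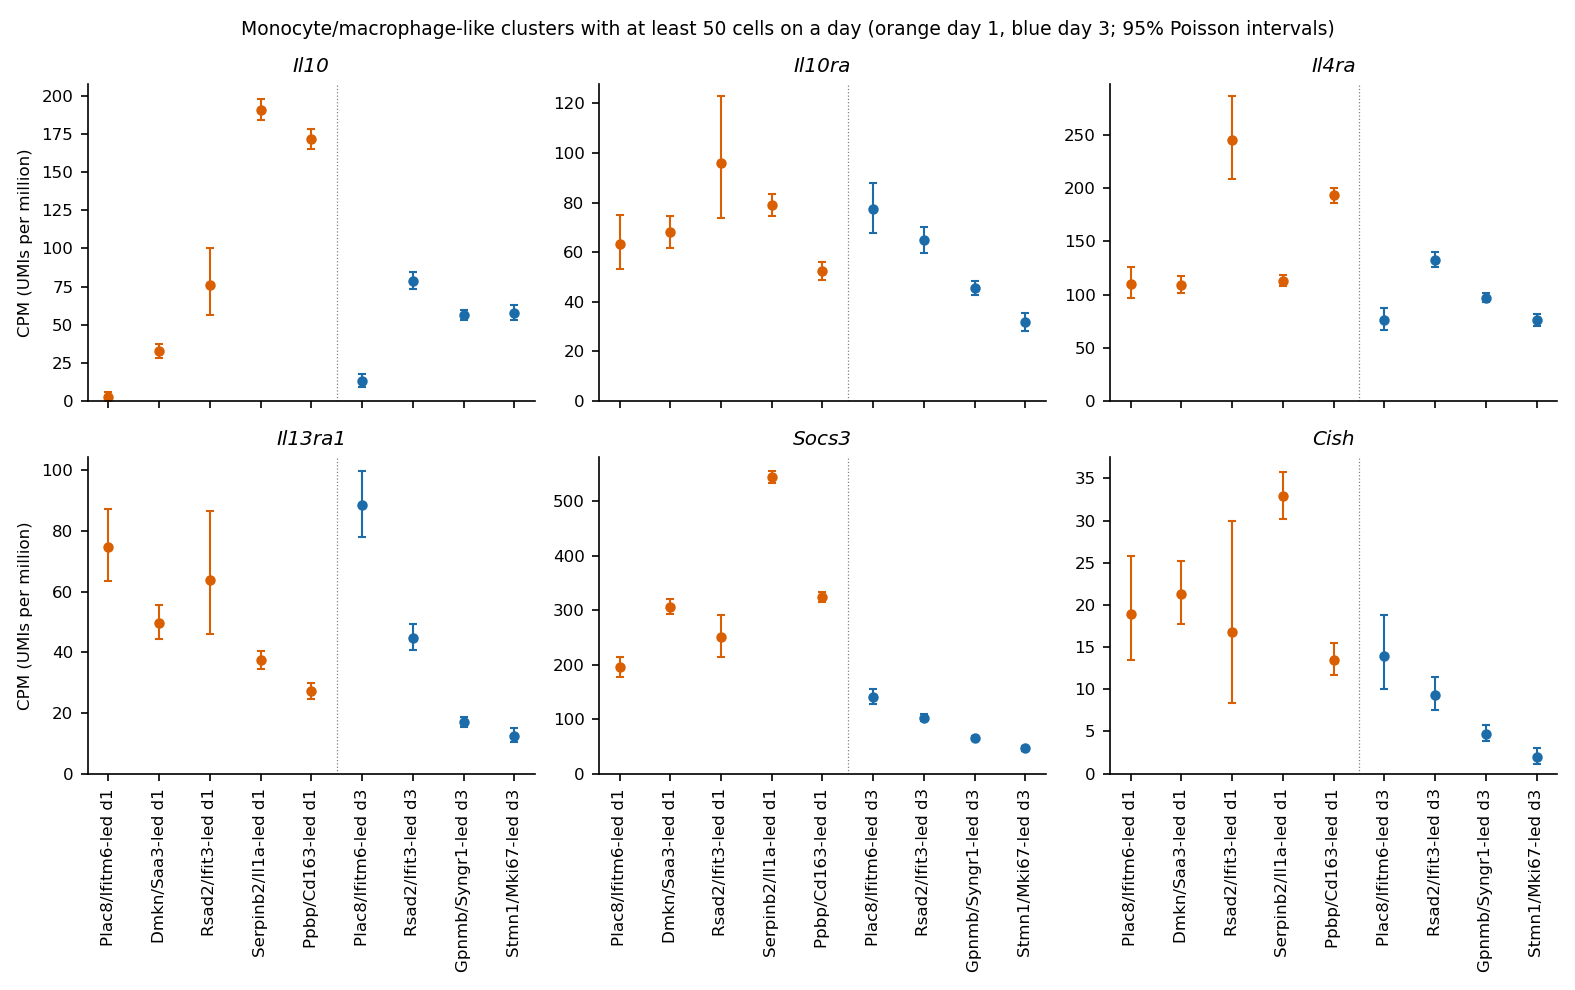
Levels (CPM) of Il10, Il10ra, Il4ra, Il13ra1, Socs3 and Cish in each monocyte/macrophage-like cluster with at least 50 cells on a day, on day 1 (orange) and day 3 (blue), with exact Poisson 95% CI. Il10 spans from 2.84 to 191 CPM among the day 1 clusters, while the lowest day 1 level of Socs3 (195 CPM) is above its highest day 3 level (140.4 CPM).

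In neutrophil-like cells Il10 was at 2.51 CPM (1.34 to 4.30) on day 1, from 13 UMIs in 7 of 2079 cells, and at 41.0 CPM (27.5 to 58.9) on day 3, from 29 UMIs in 9 of 258 cells. All 13 UMIs of day 1 were in cells that scored highest for neutrophils. Of the day 3 UMIs, 15 were in 1 cell that scored highest for B cell markers and 13 in cells that scored highest for monocytes/macrophages, while the 171 cells that scored highest for neutrophils had 0. By the floor of 3 counts this allows a share of cells with a UMI of up to 1.75% at their low depth, and sets no limit on the cells that express the gene. The 12 monocyte/macrophage markers, all detected on both days, summed to 1333 CPM in neutrophil-like cells on day 1 and to 6775 CPM on day 3. The log2 ratio of 4.0 ran from -4.64 to 7.13 over the processing alternatives (the lowest with cells named by score, the highest with ambient RNA subtracted), and no direction is read from it.

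The ligand-specific receptor chain Il10ra was highest in neutrophil-like cells on both days, with 174 CPM (162 to 185) on day 1 and 87.7 CPM (67.3 to 112) on day 3. Monocyte/macrophage-like cells had 66.7 CPM (64.3 to 69.3) and 48.9 CPM (46.8 to 51.0), and dendritic cell-like cells had 72.8 CPM (65.8 to 80.5) and 51.7 CPM (45.6 to 58.3). Monocytes/macrophages and dendritic cell-like cells did not differ beyond their intervals on either day. The log2 ratio of day 3 over day 1 was -0.45 (-0.53 to -0.37) in monocyte/macrophage-like cells, -0.97 (-1.38 to -0.61) in neutrophil-like cells and -0.49 in dendritic cell-like cells, each short of a 2-fold difference. Of the neutrophil-like clusters, that led by Acod1 and G0s2 had -1.09 (-1.61 to -0.65) and that led by S100a9 and Retnlg had -0.67 (-1.40 to -0.07). Among monocyte/macrophage-like clusters Il10ra varied less than Il10, from 52.3 to 96.0 CPM on day 1 and from 31.9 CPM in the cycling cells to 77.3 CPM in the Plac8/Ifitm6-led cells on day 3.

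The shared chain Il10rb, which also serves receptors of other IL-10 family cytokines, had, with Socs1, the day 3 to day 1 ratio nearest 0 in monocytes/macrophages. Their level was 186 CPM (182 to 190.2) on day 1 and 181 CPM (177 to 185) on day 3, a log2 ratio of -0.04 (-0.08 to 0.01), and 80.7% and 82.1% of them had a UMI. Neutrophil-like cells had 208 CPM and 163 CPM, the second with an interval (134 to 195) that overlaps that of monocytes/macrophages. Dendritic cell-like cells had 142 CPM and 102 CPM. FAP-like cells, at 40.5 CPM, and Cxcl5/Prg4-led cells, at 35.9 CPM, were lower than each leukocyte class of the same day.

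The IL-4 binding chain Il4ra was the member with the flattest order of cell types on day 1. Its highest level, 182 CPM (151 to 219) in the Hbb-bs/Ctla2a-led cells, was 2.15-fold the lowest, 84.9 CPM (80.8 to 89.2) in the Cxcl5/Prg4-led cells. Monocyte/macrophage-like cells had 144 CPM (141 to 148) on day 1 and 99.3 CPM (96.3 to 102) on day 3, a log2 ratio of -0.54 (-0.60 to -0.48). On day 3 monocyte/macrophage-like, dendritic cell-like and FAP-like cells lay close together, at 99.3, 89.7 and 78.9 CPM, with intervals that overlap between neighbours, and satellite cell/myoblast-like cells were far lower, at 10.3 CPM (8.30 to 12.6). Within clusters the day 3 level of Il4ra was lower in the Rsad2/Ifit3-led cells (245 CPM and 133 CPM, log2 ratio -0.89, CI -1.12 to -0.64) and in the Plac8/Ifitm6-led cells (110.3 CPM and 76.3 CPM, -0.53, CI -0.80 to -0.26), neither by 2-fold.

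The partners of Il4ra were divided between cell types when whole classes were compared. Il2rg, the common gamma chain, was highest in dendritic cell-like cells among classes and unnamed clusters of at least 50 cells (86.8 CPM, 79.1 to 95.2, on day 1 and 61.4 CPM, 54.8 to 68.5, on day 3). Among the named classes, monocyte/macrophage-like cells (53.2 and 42.3 CPM) and neutrophil-like cells (36.4 and 36.8 CPM) followed. The 73 Hbb-bs/Ctla2a-led cells of day 1 had 63.4 CPM (45.3 to 86.4), overlapping dendritic cell-like cells. Among monocyte/macrophage-like clusters of day 3, the Rsad2/Ifit3-led cells had 71.9 CPM (66.7 to 77.4), above dendritic cell-like cells but with overlapping intervals. The Plac8/Ifitm6-led, Stmn1/Mki67-led and Gpnmb/Syngr1-led cells had 56.0, 36.3 and 29.8 CPM. The 47 Hbb-bs/Ctla2a-led cells of day 3, too few for that order, had 80.4 CPM (50.9 to 121). Il13ra1, which makes the type II receptor, was instead highest in neutrophil-like cells on day 1 (108 CPM, 99.1 to 117), followed by Cxcl5/Prg4-led cells (77.9 CPM, 73.9 to 81.9). On day 3 it was highest in FAP-like cells (86.9 CPM, 83.2 to 90.6), with an interval overlapping that of neutrophil-like cells (83.5 CPM, 63.5 to 108). Monocyte/macrophage-like cells had 37.8 CPM (35.9 to 39.7) of Il13ra1 on day 1 and 27.3 CPM (25.8 to 28.9) on day 3. Their clusters differed on day 3. The Plac8/Ifitm6-led cells had 88.5 CPM (78.1 to 99.9), overlapping FAP-like cells. The Rsad2/Ifit3-led, Gpnmb/Syngr1-led and Stmn1/Mki67-led cells had 44.9, 16.9 and 12.5 CPM. FAP-like cells gave 56.6% of all Il13ra1 UMIs on day 3, against 32.6% from monocyte/macrophage-like cells.

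FAP-like cells had 7.75 CPM of Il2rg, 8.37 CPM of Il10ra and 10.8 CPM of Il10, which is 18.3%, 17.1% and 18.0% of the monocyte/macrophage-like level of the same day. These percentages are close to each other and above the 13.4% at which the summed monocyte/macrophage markers stood in FAP-like cells, while Il4ra was at 79.5%, Il13ra1 at 318% and Socs1 at 321%. In the Cxcl5/Prg4-led cells of day 1 the corresponding percentages were 13% for Il2rg, 11.1% for Il10ra, 8.53% for Il10 and 6.83% for the markers, against 58.9% for Il4ra, 206% for Il13ra1 and 270% for Socs1. Il10rb stood between, at 22.4% in FAP-like and 19.3% in Cxcl5/Prg4-led cells. The part of RNA from other cells in these low levels was not tested, and no expression by these cells is read from them. In cells thinned to 3000 UMIs, 1.5% of FAP-like cells had an Il2rg UMI and 21.7% an Il13ra1 UMI.

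**Figure D2:**
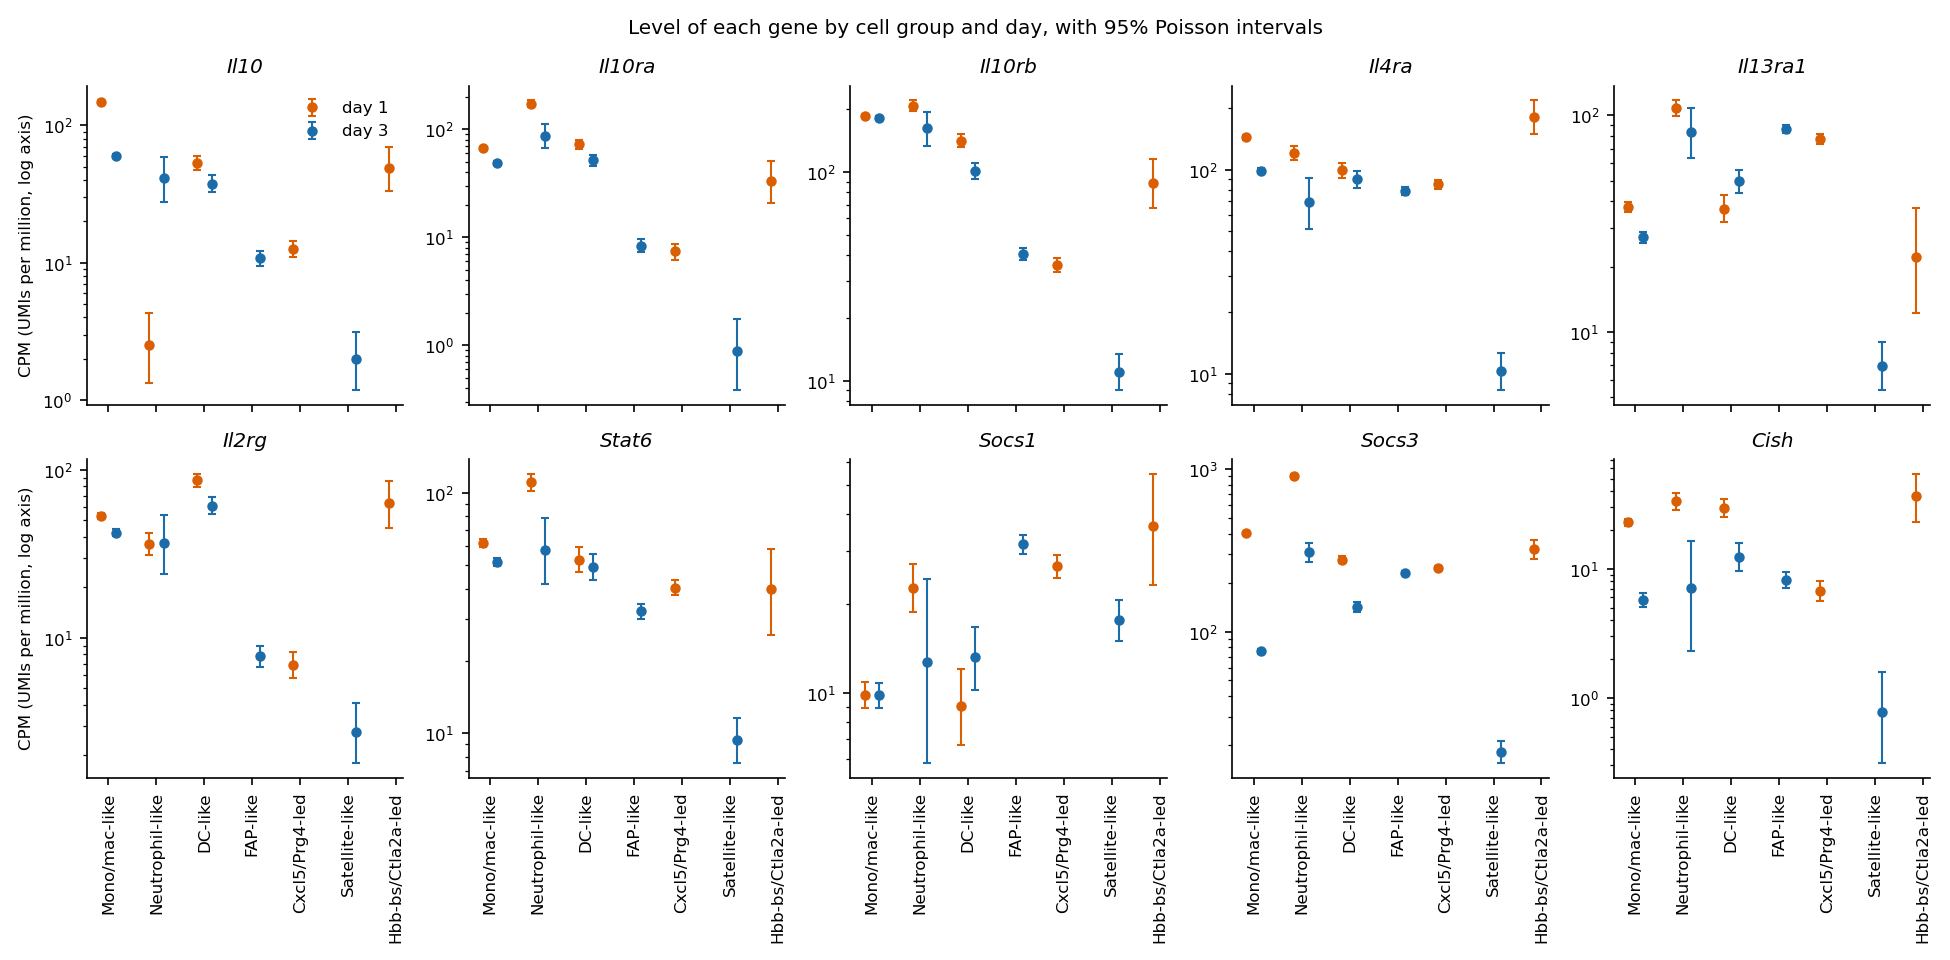
Level (CPM, log axis) of each of the 10 genes in each cell group with at least 50 cells, on day 1 and day 3, with exact Poisson 95% CI. Il10 is highest in monocyte/macrophage-like cells (148 and 59.7 CPM, the second overlapping neutrophil-like cells), Il2rg in dendritic cell-like cells (86.8 and 61.4 CPM, the first overlapping Hbb-bs/Ctla2a-led cells), and Il13ra1 and Socs1 are higher in FAP-like cells than in monocyte/macrophage-like cells of day 3.

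Detection of both chains in the same cell followed this division for the IL-10 and type I receptors, and less clearly for type II. Such shares depend on the level of each chain, and no share expected from the single chains was computed. They are thus no separate support for the division. In thinned cells, both chains of the IL-10 receptor were seen in 7.36% (6.50 to 8.30) of monocyte/macrophage-like cells on day 1 and 4.85% (4.08 to 5.72) on day 3, and in 1 of 802 FAP-like cells. Both chains of the type I receptor were seen in 4.42% (3.75 to 5.17) and 2.61% (2.05 to 3.27) of monocyte/macrophage-like cells and in 3 of 802 FAP-like cells. Both chains of the type II receptor were seen in 4.86% (3.48 to 6.59) of FAP-like cells on day 3, above the 2.03% (1.54 to 2.63) of monocyte/macrophage-like cells of that day. Their interval overlapped those of dendritic cell-like cells of day 3, at 4.33% (2.63 to 6.68), and of monocyte/macrophage-like cells of day 1, at 3.59% (2.99 to 4.28). Without thinning, 64.1% of FAP-like cells and 20.2% of monocyte/macrophage-like cells had UMIs of both type II chains, at medians of 25718 and 13821 UMIs. Of neutrophil-like cells only 298 on day 1 and 27 on day 3 reached 3000 UMIs. In the 298, the shares were 16.1% (12.1 to 20.8) for the IL-10 receptor, 1.68% (0.547 to 3.87) for type I and 8.39% (5.50 to 12.1) for type II. In satellite cell/myoblast-like cells each pair was seen in 0 of 203 (0 to 1.80).

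**Figure D3:**
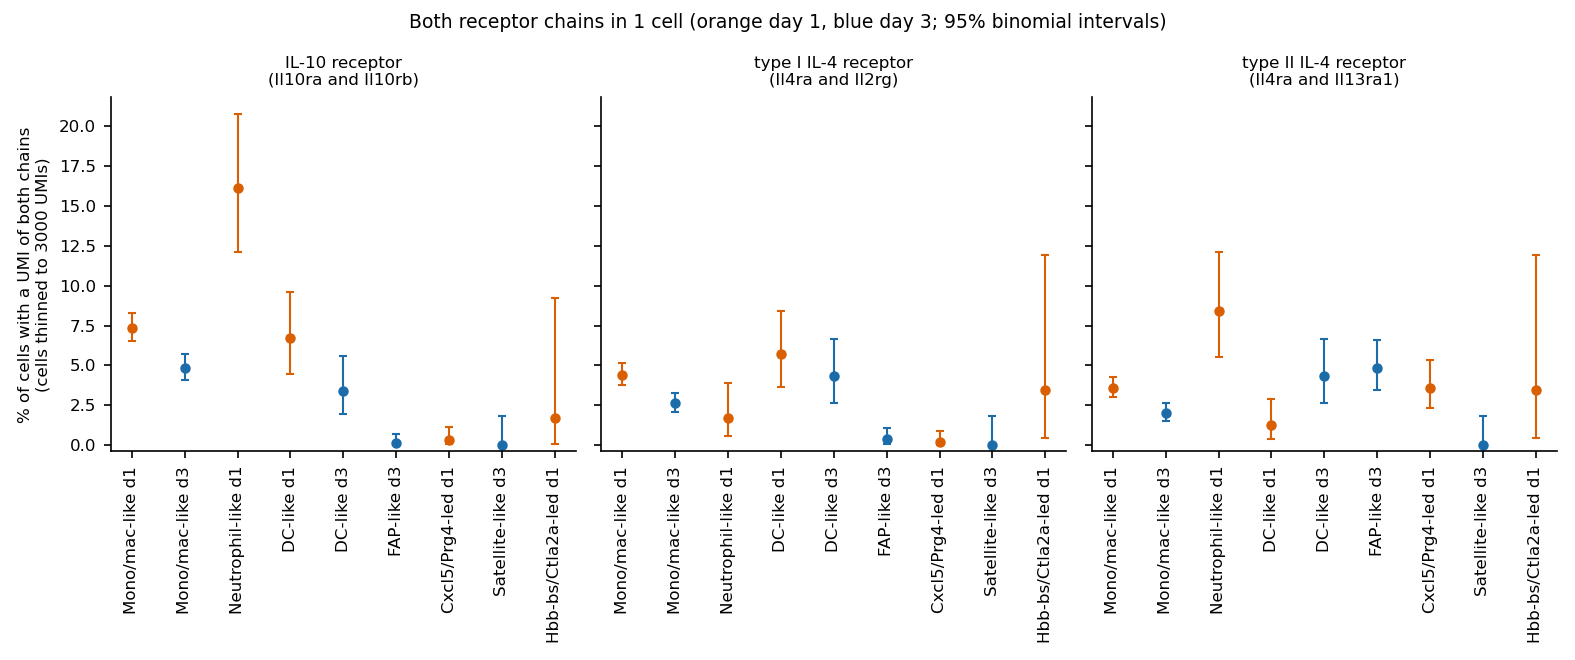
Share of cells (%) with UMIs of both chains of each receptor after thinning cells to 3000 UMIs, without the shallower cells, by cell group on day 1 (orange) and day 3 (blue), with Clopper-Pearson 95% CI. The type II pair is seen in 4.86% of FAP-like cells of day 3, where the type I pair is seen in 0.374% and the IL-10 receptor pair in 0.125%.

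The ligands of the IL-4 receptors themselves were barely detected. Il4 had 2 UMIs among 6735 cells on day 1 and 1 among 4627 cells on day 3, and Il13 had 6 UMIs on day 1 and 0 on day 3, which allows a share of cells with a UMI of up to 0.0648%. Of the 6 Il13 UMIs of day 1, 4 were in Cxcl5/Prg4-led cells, and neither gene had a UMI in monocyte/macrophage-like cells. Whether other cells or other times would hold them is outside these libraries.

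Stat6, the transcription factor of the IL-4 and IL-13 receptors, had 61.9 CPM (59.5 to 64.3) in monocyte/macrophage-like cells on day 1 and 51.5 CPM (49.4 to 53.6) on day 3, a log2 ratio of -0.27 (-0.35 to -0.18). Neutrophil-like cells had the highest level on day 1, 111 CPM (102 to 120.3), and 58.0 CPM (41.6 to 78.7) on day 3, when their interval overlapped that of monocytes/macrophages. Across the monocyte/macrophage-like clusters Stat6 stayed within 50.2 to 63.4 CPM on day 1 and 45.5 to 68.2 CPM on day 3, the narrowest day 1 range of the members by the ratio of highest to lowest. The range of Il10 among the same day 1 clusters was 2.84 to 191 CPM.

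Among the feedback inhibitors, Socs3 and Cish had lower levels on day 3 in each leukocyte class, while the log2 ratio of Socs1 was -0.00, -0.76 and 0.54 in monocyte/macrophage-like, neutrophil-like and dendritic cell-like cells, each with an interval that includes 0. Socs3, which acts on receptors of the IL-6 family and is induced through STAT3, had 404 CPM (397 to 409.8) in monocyte/macrophage-like cells on day 1 and 75.5 CPM (73.0 to 78.1) on day 3, a 5.34-fold difference (log2 ratio -2.42, CI -2.47 to -2.36). In neutrophil-like cells it had 910.0 CPM (884 to 936) and 308 CPM (269 to 352), and in dendritic cell-like cells 276 CPM (262 to 291) and 141 CPM (131 to 152), just short of 2-fold. Neutrophil-like cells had the highest Socs3 level on both days.

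The difference in Socs3 was seen across monocyte/macrophage-like clusters as well as between the classes. Day 1 clusters ran from 195 CPM (177 to 215) in the Plac8/Ifitm6-led to 544 CPM (533 to 555) in the Serpinb2/Il1a-led cells, and day 3 clusters from 46.7 CPM (42.5 to 51.2) in the cycling to 140.4 CPM (127 to 155) in the Plac8/Ifitm6-led cells, so clusters of at least 50 cells did not overlap between the days. Of the smaller day 3 clusters, the Serpinb2/Il1a-led (11 cells) had 165 CPM (102 to 253) and the Dmkn/Saa3-led (21 cells) 164 CPM (115 to 229). Their intervals overlap the lowest day 1 cluster. Within the Rsad2/Ifit3-led cells Socs3 fell from 249.9 CPM to 102 CPM (log2 ratio -1.30, CI -1.53 to -1.05). In the Plac8/Ifitm6-led cells the ratio was -0.47 (-0.67 to -0.27). In both neutrophil-like clusters Socs3 fell, from 996 to 331 CPM in the cells led by Acod1 and G0s2 and from 780.0 to 276 CPM in those led by S100a9 and Retnlg. Over neutrophil-like cells the 9 neutrophil markers also had a lower sum on day 3 (87272 and 28105 CPM), while the monocyte/macrophage markers (1333 and 6775 CPM) and the 7 FAP markers (24.4 and 1477 CPM) had a higher one, and their part in the ratios of neutrophil-like cells was not tested. The share of monocyte/macrophage-like cells with a Socs3 UMI was 82.9% on day 1 and 49.9% on day 3, or 58.3% and 18.7% after thinning. Cxcl5/Prg4-led cells of day 1 had 246 CPM and FAP-like cells of day 3 had 229.6 CPM of Socs3, so that on day 3 FAP-like cells, at 304% of the monocyte/macrophage-like level, gave 55% of its UMIs.

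Cish, a SOCS family member induced through STAT5 by cytokines of the common gamma chain and related receptors, had 22.8 CPM (21.4 to 24.4) in monocyte/macrophage-like cells on day 1 and 5.76 CPM (5.08 to 6.51) on day 3, a 3.96-fold difference. In dendritic cell-like cells it had 29.5 CPM (25.1 to 34.5) and 12.4 CPM (9.57 to 15.9), and in neutrophil-like cells 33.5 CPM (28.7 to 38.8) and 7.07 CPM (2.30 to 16.5). The highest cluster among monocytes/macrophages was the Serpinb2/Il1a-led one on day 1, at 32.9 CPM (30.2 to 35.8), and the lowest the cycling one on day 3, at 1.98 CPM (1.19 to 3.09). Within the Rsad2/Ifit3-led and Plac8/Ifitm6-led cells the log2 ratios of Cish were -0.90 (-1.75 to 0.21) and -0.45 (-1.11 to 0.22), with intervals that include 0.

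Socs1, an inhibitor of Janus kinases known for limiting interferon and IL-4 signals, had 9.87 CPM (8.93 to 10.9) in monocyte/macrophage-like cells on day 1 and 9.86 CPM (8.96 to 10.8) on day 3. It was higher in FAP-like cells of day 3 (31.7 CPM, 29.5 to 34.0), in Cxcl5/Prg4-led cells of day 1 (26.7 CPM, 24.4 to 29.1) and in satellite cell/myoblast-like cells of day 3 (17.6 CPM, 15 to 20.5). It was the only member with a higher level in satellite cell/myoblast-like than in monocyte/macrophage-like cells. Among the day 3 monocyte/macrophage-like clusters, the interferon-induced Rsad2/Ifit3-led cells had the most, 15.8 CPM (13.4 to 18.5), against 7.07 CPM (5.99 to 8.28) in the Gpnmb/Syngr1-led cells. On day 1 the Rsad2/Ifit3-led cells had 6.10 CPM (1.66 to 15.6), from 4 UMIs.

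Over the members as a group, the day 3 levels lay low against those of other genes. Counting a difference of at least 2-fold, and only genes with 100 or more UMIs in the class, 3 of 10 members (Il10, Socs3 and Cish) were lower on day 3 in monocyte/macrophage-like cells, where 4.92% of 10696 genes were lower, and 0 were higher, where 27.0% of genes were higher. In neutrophil-like cells 2 of 9 members that passed (Socs3 and Cish) were lower, beside 9.42% of 4183 genes, and 0 were higher, beside 26.5%. In dendritic cell-like cells 1 of 10 (Cish) was lower, beside 3.65% of 6954 genes, and 0 were higher, beside 12.3%. The minimum was counted over both days. Cish had 173 UMIs on day 1 and 5 on day 3 in neutrophil-like cells, and 156 and 64 in dendritic cell-like cells. In these classes it passed through day 1 alone, where it was higher, and its calls there carry that limit. The median log2 ratio of the members was -0.46, -0.80 and -0.49 in the 3 classes, and that of all genes tested 0.45, 0.31 and 0.22. All 10 members in monocyte/macrophage-like cells, all 9 in neutrophil-like cells and 8 of 10 in dendritic cell-like cells had a ratio below the median of all genes. Scaling each class to that median moved the share of calls that were higher on day 3 from 84.6% to 63.1%, from 73.8% to 52.7% and from 77.1% to 61.0%. On that scale 3 of 10, 6 of 9 and 2 of 10 members were lower by 2-fold, beside 9.45%, 16.1% and 5.25% of genes, and 0 were higher. With each library clustered on its own the ratio of Socs3 in neutrophil-like cells was -0.46, and after thinning that of Cish in dendritic cell-like cells was -0.46, both short of 2-fold. With 1 library a day these counts describe the libraries, not a tested change.

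**Figure D4:**
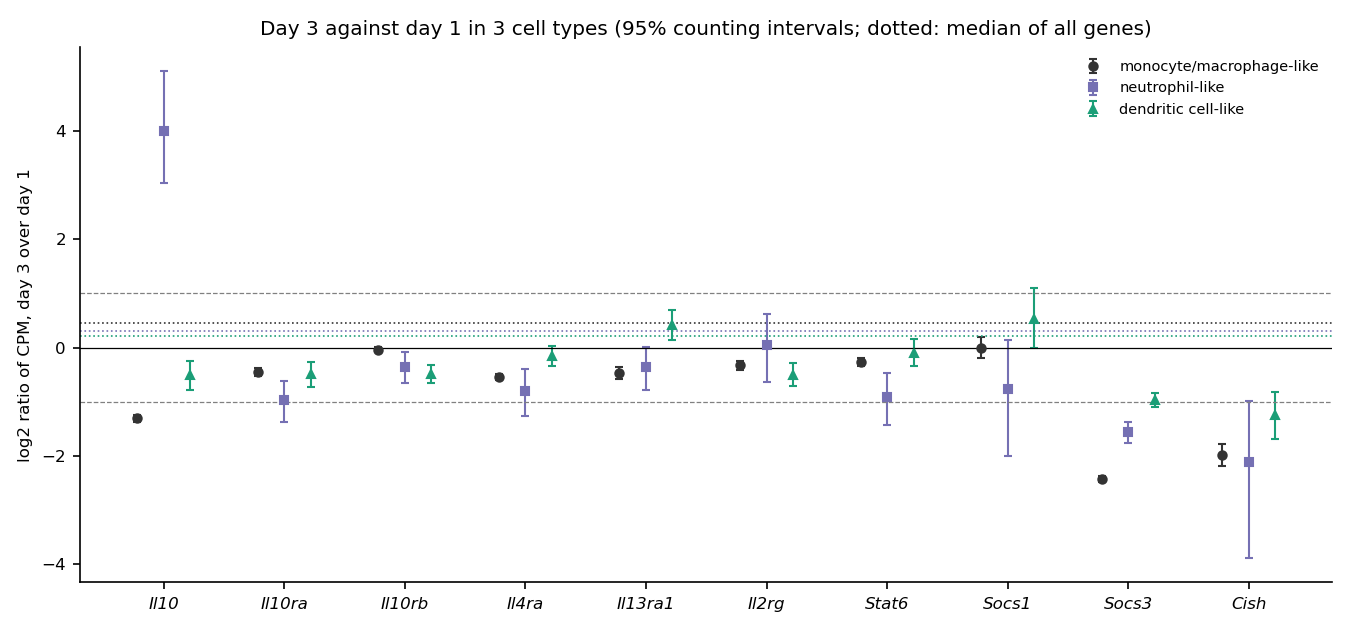
Log2 ratio of day 3 over day 1 for each of the 10 genes in the 3 leukocyte classes, with 95% counting intervals and with the median of all genes tested in each class as a dotted line and a 2-fold difference as dashed lines. In monocyte/macrophage-like cells Socs3 (-2.42), Cish (-1.99) and Il10 (-1.31) lie below a 2-fold difference and Il10rb (-0.04) and Socs1 (-0.00) lie at 0.

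The other genes of these pathways were taken from fixed lists and described in monocyte/macrophage-like cells by the same 2-fold count. Of the 4 Janus kinases, which sit on the receptor chains, 0 differed by 2-fold. Jak1 had 126 and 125 CPM, Jak2 38.7 and 23.7 CPM and Tyk2 13.2 and 16.0 CPM. Among other STAT genes, Stat2, which carries interferon signals, rose from 11.2 to 27.0 CPM, while Stat3, the main factor downstream of IL-10, had 139.5 CPM on day 1 and 83.3 CPM on day 3 (log2 ratio -0.74, CI -0.80 to -0.68). Of the 5 other SOCS genes, 1 was higher and 1 lower. Socs6 rose from 9.41 to 46.4 CPM, Socs4 had 11.5 and 16.5 CPM, Socs7 had 14.9 and 13.2 CPM, and the gene that fell was Socs2, at a log2 ratio of -1.56, which was named after its values were seen.

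Receptor chains and ligands of the wider families were mostly at or near 0 in monocytes/macrophages. Of 12 other receptor chains, 3 passed the minimum of 100 UMIs and 1 was higher on day 3. Il21r rose from 6.26 to 15.8 CPM, Il7r had 34.3 and 60.0 CPM and Il15ra had 1.91 and 2.36 CPM. Of 5 other ligands of the common gamma chain, 1 passed, Il15, which rose from 4.74 to 15.7 CPM. None of the 4 other IL-10 family ligands (Il19, Il20, Il22 and Il24) passed.

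Genes known to be induced downstream leaned towards day 1. Of 16 genes known to be induced by IL-4 through STAT6, 12 passed, of which 6 were lower and 2 higher on day 3, beside 4.92% and 27.0% of all genes, with a median log2 ratio of -1.0 against 0.45 over all genes. Chil3 fell from 2253 to 573 CPM and Arg1, the arginine-degrading enzyme used as a marker of alternative activation, from 1609 to 37.1 CPM, whereas the mannose receptor Mrc1 had 452 and 388 CPM. Of 10 genes known to be induced by IL-10 through STAT3, all passed, of which 5 were lower and 1 higher, beside the same shares of all genes, with a median of -1.10. Il1rn, the IL-1 receptor antagonist, fell from 362 to 127 CPM, the transcription factor Nfil3 fell from 191 to 79.8 CPM, and Zfp36, which destabilizes cytokine mRNAs, had 754 and 391 CPM. These genes respond to other signals too, and their lists are not readouts of IL-4 or IL-10 alone.

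**Figure D5:**
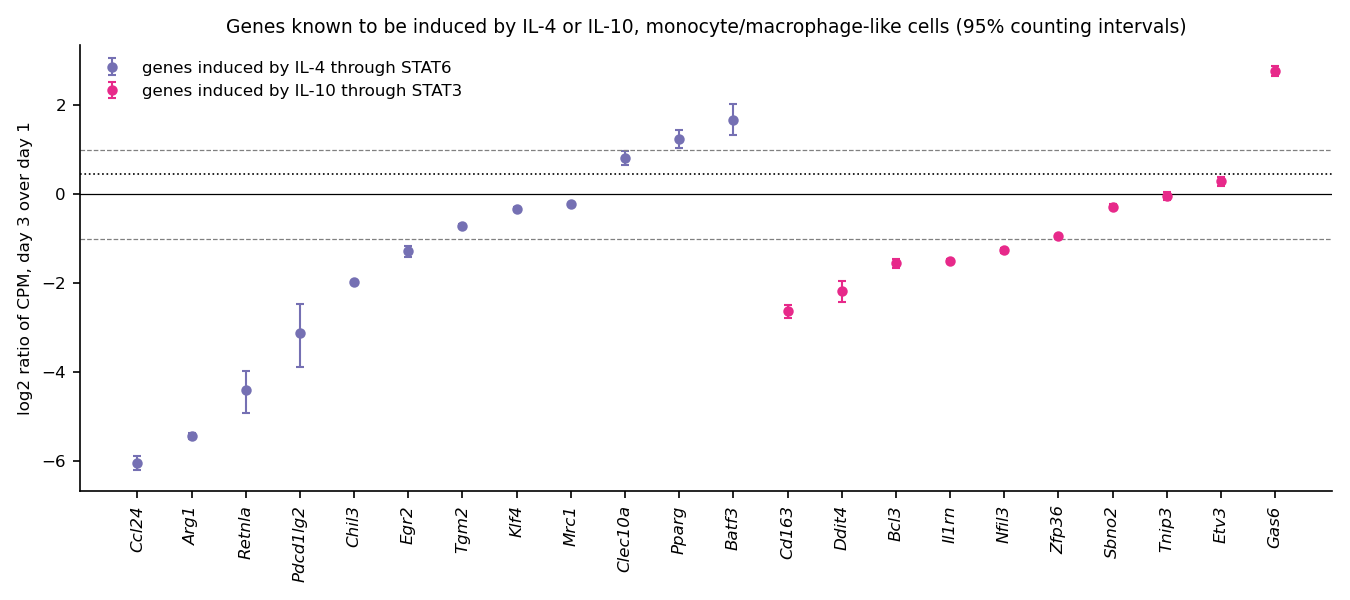
Log2 ratio of day 3 over day 1 in monocyte/macrophage-like cells for the genes of the IL-4 and IL-10 lists that passed the minimum of 100 UMIs, with 95% counting intervals. Of the IL-4 list 6 of 12 lie below a 2-fold difference, Arg1 among them, and of the IL-10 list 5 of 10.

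The genes whose levels were most like those of each member over the 8 groups of named cell type and day with at least 50 cells differed between members. Il10 was most like Slc7a8, Ms4a6d and Mrc1 (Pearson r from 0.98 to 0.99 on log2 levels), Syk and Tyrobp were among the genes most like Il10ra, and Il10rb was most like Plekhm2, Pla2g7 and Glrx. Il4ra was most like Ppard, Ifnar2 and Gabarap, Il13ra1 most like Jak1, Jak2 and Atxn7, and Il2rg most like Ucp2, Cytip and Gm2a. Stat6 was most like Gab2, Chmp4b and Plekhg3, Socs1 most like Btbd7, Ctdsp2 and Cd164, Socs3 most like S100a11, Ier2 and Stk40, and Cish most like Agpat4, Rara and Dleu2. The 8 groups share 2 libraries and their depth, and the best of many genes is high over so few points, so these are descriptions without a test.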

How the data were processed

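From 10x Genomics 3′ libraries the authors deposited UMI counts of each gene in each listed barcode, with cells not yet called. The submitters' processing notes name Cell Ranger 5.0.0 and mm10, while the matrix headers name Cell Ranger 4. Values are whole counts, with no normalization. The labels gave the day of each library.

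Barcodes were ranked by UMIs, the first 7367 (day 1) and 6640 (day 3) were taken, and cells with at least 1000 UMIs, at least 200 genes and at most 7.5% mitochondrial UMIs were kept. Doublets were kept, since the automatic threshold of Scrublet marked 1 cell and 0 cells. Both libraries were normalized together with SCTransform (Seurat 5.3.0, sctransform 0.4.2, R 4.3.3; 3000 variable features without the members, the listed pathway genes and the markers, 10 PCs, resolution 0.8). A cluster was named for the highest scoring marker list if 3 or more of those markers were raised and its 10 leading genes did not go against the name. Other clusters stayed unnamed.

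Levels, shares and intervals were computed with Python 3.11.15, numpy 2.4.6, scipy 1.17.1 and scanpy 1.11.5. Log2 ratios were taken with 0.5 added to both counts, and their intervals are exact binomial ones. A floor is 3 UMIs. Barcodes of up to 100 UMIs served as the ambient profile. The code was tested on simulated data. Sequences come from RefSeq tables and exons from GENCODE M21. Named are the 10 members, up to 3 genes with the most UMIs of each pathway list, and the 3 genes of at least 500 UMIs most like each member in log2(CPM + 1). The members and lists were chosen with earlier results of these data known. Alternatives changed the call of cells, mitochondrial limit, doublets, normalization, PCs, resolution, joint clustering, naming, summary, ambient RNA, depth, cycling cells and scaling. Some genes that these rules name are not reported here.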

Additional observations from a re-analysis of the deposited data

Results flagged for a closer look

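The day 3 to day 1 ratios of Il10 and Il13ra1 had counting intervals on opposite sides of 0 in different cell types, or a direction in one that was not that of the others. For Il10 the log2 ratio was -1.31 in monocyte/macrophage-like and -0.51 in dendritic cell-like cells, against 4.0 in neutrophil-like cells, where it came from 13 and 29 UMIs, 15 of them in 1 cell. For Il13ra1 it was -0.47 (-0.58 to -0.36) in monocyte/macrophage-like and -0.36 (-0.78 to 0.02) in neutrophil-like cells, against 0.42 (0.15 to 0.70) in dendritic cell-like cells, from 196 UMIs on day 1 and 256 on day 3. The neutrophil-like ratio of Il13ra1 kept its sign in 5 of 10 alternatives and reached 0.50 with each library clustered on its own, so no direction is read from it. The differences between cell types were not tested, since each day has 1 library.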

How the results depend on the processing

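In monocyte/macrophage-like cells the counts of 3 members lower and 0 higher on day 3 held under each alternative run, with Il10, Socs3 and Cish lower each time. The log2 ratio ran from -1.75 to -1.21 for Il10, from -2.86 to -2.25 for Socs3 and from -2.43 to -1.69 for Cish. Those of Il10ra, Il10rb, Il4ra, Il13ra1, Il2rg and Stat6 stayed below 0, and that of Socs1 ran from -0.45 to 0.11. In neutrophil-like cells Il10 changed sign, at -0.01 with a mitochondrial limit of 15%, -0.18 after log-normalization, -2.69 with each library clustered on its own and -4.64 with cells named by score. There Il10ra, Il10rb, Il13ra1, Il2rg and Socs1 also changed sign under at least 1 alternative, and Socs3 ran from -1.87 to -0.46. In dendritic cell-like cells Socs3 ran from -1.19 to -0.68 and Cish from -1.46 to -0.46, the last after thinning, and Il13ra1 stayed above 0. The causes were not tested. The neutrophil and dendritic cell ratios under the alternatives, and the omission of cycling cells, were chosen after seeing the data. Calling cells at 10% of the 99th percentile of UMIs left 115 and 0 neutrophil-like cells, and log-normalization gave no dendritic cell-like cluster. Ambient RNA was at most 3.22% of a member's level in monocyte/macrophage-like cells. No paired analysis was possible because each day has 1 library, from different mice, and no replicate could be left out.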
